A study of Mus musculus with 4 samples.

Results

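Committed differentiating oligodendrocyte lineage nuclei of the mouse hypothalamic arcuate nucleus (ARC) were examined in single-nucleus RNA sequencing (snRNAseq) data. They were selected by transcript counts: a nucleus with no unique molecular identifier (UMI, 1 captured transcript) of Pdgfra, with either 3 or more UMIs of Gpr17 or at least 2 of the genes Gpr17, Bmp4 and Enpp6 detected, and with fewer than 3 of the 7 mature genes Mag, Mog, Mal, Cldn11, Ermn, Hapln2 and Opalin. This gate held 67 of 39176 nuclei that passed quality limits, and they are called committed-gate nuclei here. All mice were wildtype C57BL/6J males aged 10 weeks. For 3 weeks they had either a subcutaneous pellet of deoxycorticosterone acetate (DOCA) with a saline drink beside water (DOCA-salt) or a sham operation with water (Sham). Each of the 4 libraries, DOCA-salt 1, DOCA-salt 2, Sham 1 and Sham 2, was a pool of 2 mice, so there were 2 pools per group and the pool was the replicate.

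Oligodendrocytes form myelin, the lipid-rich sheath of axons, and arise in the adult brain from precursor cells that carry Pdgfra, a receptor for platelet-derived growth factor. A precursor that leaves the cell cycle passes through a short committed and premyelinating state, marked by the G protein-coupled receptor Gpr17, before it either ensheathes an axon or is lost. Bmp4 is a secreted bone morphogenetic protein that is made in this state, and Enpp6 is a choline-specific phosphodiesterase of newly formed oligodendrocytes.

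Depth differed between the libraries. The 10307, 18907, 2203 and 7759 kept nuclei of DOCA-salt 1, DOCA-salt 2, Sham 1 and Sham 2 held 37442185, 69382757, 21255137 and 39528518 UMIs. The committed gate took 23, 17, 5 and 22 of these nuclei, with 147797, 67224, 38624 and 171485 UMIs in all. Their median depth was 2972, 2357, 6141 and 6404.5 UMIs, so the Sham nuclei of the gate were read more deeply than the DOCA-salt ones. Cell barcodes shared between libraries numbered 122 among kept nuclei, and none of these belonged to a committed-gate nucleus.

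The 3 genes of the gate, whose values are given as a description because they chose the nuclei, were not all present in every nucleus. Gpr17 was detected in 62 of the 67 nuclei, Enpp6 (chromosome 8, 46986887 to 47096762, plus strand, GRCm38) in 43 and Bmp4 (chromosome 14, 46383520 to 46390669, minus strand) in 31. All 3 were found together in 19 nuclei, of which 8 were from DOCA-salt 1, 4 from DOCA-salt 2, none from Sham 1 and 7 from Sham 2. Exactly 2 were found in 31 nuclei, and 17 nuclei were taken on Gpr17 alone. In summed counts, Gpr17 stood at 589, 1086, 155 and 560 CPM (UMIs of the gene per 1000000 UMIs of the sum) in DOCA-salt 1, DOCA-salt 2, Sham 1 and Sham 2. Bmp4 stood at 162, 134, 77.7 and 187 CPM and Enpp6 at 257, 372, 51.8 and 321 CPM in the same order. Sham 1 was the lowest library for each of the 3, and its 5 nuclei held only 6 Gpr17, 3 Bmp4 and 2 Enpp6 UMIs in all.

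The borders of the gate ran through many nuclei. With no Pdgfra and fewer than 3 mature genes, 9 nuclei entered on Gpr17 alone with exactly 3 UMIs, while 41 with 2 Gpr17 UMIs alone and 367 with 1 stayed outside. Among nuclei that met the marker part without Pdgfra, 24, 24 and 19 had 0, 1 and 2 mature genes and were inside, and 19 had 3 and were outside. A further 32 nuclei met the marker part but had 1 Pdgfra UMI, and 67 had 2 or more. Of the 31 nuclei with exactly 2 marker genes, 19 had Gpr17 with Enpp6, 7 had Gpr17 with Bmp4 and 5 had Bmp4 with Enpp6.

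The lineage label was checked with Sox10, Olig1 and Olig2, transcription factors of the whole oligodendrocyte lineage that the gate did not use. At least 1 UMI of these 3 genes was present in 48 of 67 nuclei: 18 of 23 in DOCA-salt 1, 14 of 17 in DOCA-salt 2, 2 of 5 in Sham 1 and 14 of 22 in Sham 2. As a background, nuclei with 5 or more of 10 neuron markers that were outside this gate and outside gates for precursors (2 or more Pdgfra UMIs) and mature cells (3 or more of the 7 mature genes) had such a UMI in 11.9%, 17.4%, 42.6% and 24.6% of cases, at median depths of 3517, 3203, 7843 and 4400 UMIs. The share in the gate, 78.3%, 82.4%, 40.0% and 63.6%, was above this in 3 libraries and not in Sham 1, and a single such UMI does not set a nucleus apart there. Among the 41 nuclei with 3 or more Gpr17 UMIs the number was 37. Among the 26 nuclei that entered by detection of 2 genes only, it was 11. The counts of these 48 and of the other 19 nuclei gave 534 and 163 CPM of Bcas1 (an early protein of myelinating cells), and 222 and 18.1 CPM of Neu4 (a sialidase of early oligodendrocytes). Neu4 was detected in 32 of the 48 and in 1 of the 19 nuclei. Over all libraries their median depths, 4877 and 5272 UMIs, were close, but the libraries were mixed differently. The 19 nuclei numbered 5, 3, 3 and 8 in DOCA-salt 1, DOCA-salt 2, Sham 1 and Sham 2. Within each library the lineage factor nuclei were the deeper ones. Their medians were 3123, 2998.5, 10437.5 and 7425 UMIs, against 2972, 2357, 6141 and 6404.5 UMIs for all committed-gate nuclei there. The part of depth in these differences was not tested.

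In Sham 1 several markers went against the label. Its 5 nuclei had no UMI of Sox10, Neu4 or 9630013A20Rik (a long non-coding RNA of newly formed oligodendrocytes), and 1 UMI of Bcas1. Olig1 was detected in 2 of the 5 and Olig2 in 1. The nucleus with Olig2 had 3 Gpr17, 2 Olig1 and 1 Olig2 UMIs. Bcas1 (chromosome 2, 170346991 to 170427845, minus strand) stood at 386, 938 and 379 CPM in DOCA-salt 1, DOCA-salt 2 and Sham 2 but at 25.9 CPM in Sham 1. Because the results between treatments rest on these 5 nuclei as 1 of 2 Sham values, the main ones are given below also without Sham 1. They are given as well for the 48 nuclei with a lineage factor alone, which still include 2 nuclei of Sham 1. Neither of these 2 had a UMI of Bcas1, Neu4 or 9630013A20Rik. A list of 20 genes of the committed state summed to 335 CPM in them, against 4183, 5387 and 4114 CPM in the lineage factor nuclei of DOCA-salt 1, DOCA-salt 2 and Sham 2. Fits to the 48 nuclei thus do not remove the weakness of Sham 1. The plot of single nuclei shows the same values nucleus by nucleus.

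**Figure D1:**
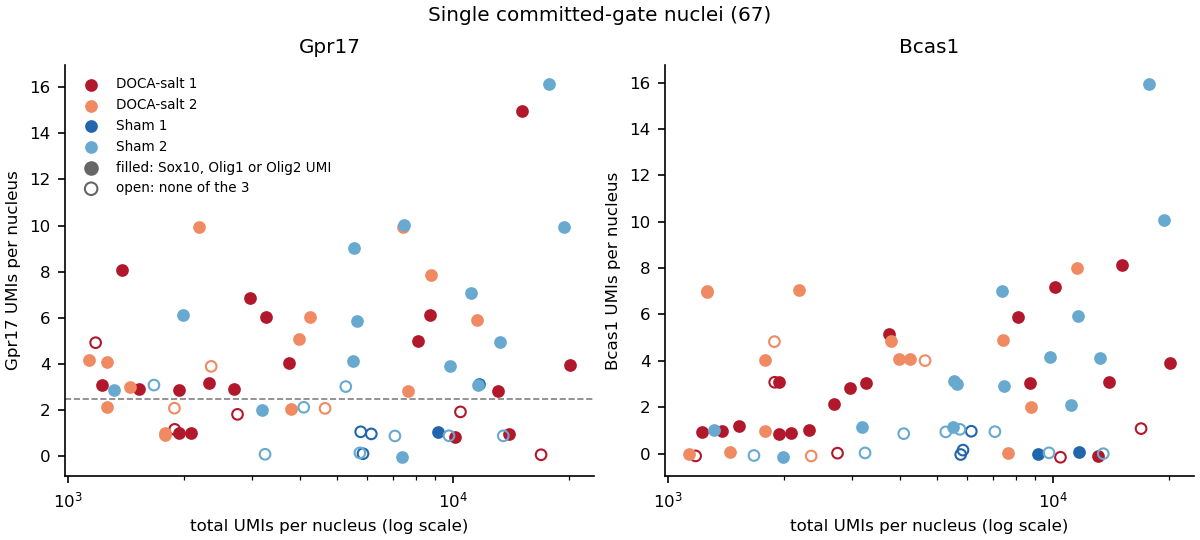
Each point is 1 of the 67 committed-gate nuclei, with its total UMIs on a log axis and its UMIs of Gpr17 (left, where points above the dashed line met the limit of 3) or Bcas1 (right), spread slightly in height so that points do not cover each other. Colors mark the library and filled points have a UMI of Sox10, Olig1 or Olig2; the 5 nuclei of Sham 1 lie at 0 to 3 Gpr17 UMIs and at 0 or 1 Bcas1 UMI.

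Transcripts of other cell types were present in the gate. The 10 neuron markers summed to 8649, 8185, 9635 and 10191 CPM in DOCA-salt 1, DOCA-salt 2, Sham 1 and Sham 2, against 13373, 10528, 11903 and 12688 CPM in neuron-gated nuclei (5 or more of the 10 markers, no lineage factor UMI), with Snhg11 as the most abundant of them in all 8 sums. Precursor-gated nuclei, at 10708, 8590, 9734 and 10404 CPM, and mature-gated nuclei, at 10286, 8693, 10302 and 9535 CPM, had sums of the same order, so these transcripts were not limited to the committed gate. At least 5 of these markers were detected in 14 of 23, 10 of 17, 5 of 5 and 20 of 22 committed-gate nuclei. The 8 astrocyte markers summed to 1617, 1533, 2383 and 1820 CPM, with Slc1a2 first, against 1683, 2176, 2454 and 1998 CPM in precursors. In the other direction, Gpr17 was detected in 0.760%, 0.925%, 2.92% and 1.58% of neuron-gated nuclei at median depths of 3357, 3072, 7393.5 and 3920 UMIs, and Enpp6 in 0.190%, 0.219%, 1.92% and 1.85%. Both were more frequent there in the Sham libraries. The part of such stray transcripts in the membership of the gate was not tested. Microglial, endothelial, mural, fibroblast and ependymal markers each summed to at most 155 CPM in the committed gate of any library, with no UMI of any mural or fibroblast marker in Sham 1.

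Tanycytes, the glia that line the floor of the third ventricle, left a clear trace in 1 library. The 6 tanycyte markers Rax, Crym, Col23a1, Frzb, Scn7a and Lhx2 summed to 988 CPM in the DOCA-salt 1 gate but to 14.9 CPM in that of DOCA-salt 2 and to 130 and 11.7 CPM in those of Sham 1 and 2, and Rax, which defines these cells, reached 162 CPM there and was at 0 in the other 3 libraries. In DOCA-salt 1 this came from 4 nuclei with 2 or more of the 6 markers, which held 141 of its 146 tanycyte UMIs. They had 8750, 14026, 16953 and 20123 UMIs and 40.5% of all committed-gate UMIs of that library. Their Gpr17 counts were 6, 1, 0 and 4, and 3 of the 4 had a lineage factor UMI. No committed-gate nucleus of another library had 2 tanycyte markers. Results were therefore also computed without these 4 nuclei.

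Committed-gate nuclei made up 0.223%, 0.0899%, 0.227% and 0.284% of kept nuclei in DOCA-salt 1, DOCA-salt 2, Sham 1 and Sham 2. Exact 95% binomial intervals, which cover counting error only, were 0.142 to 0.335%, 0.0524 to 0.144%, 0.0737 to 0.529% and 0.178 to 0.429%. DOCA-salt 2 was the lowest library, and DOCA-salt 1 and Sham 1 were nearly equal. The means were 0.157% with DOCA-salt and 0.255% with Sham, a difference of -0.0987 percentage points. The 2 DOCA-salt values lay below both Sham values, and the exact two-sided permutation test gave p = 0.333, the smallest p that 2 against 2 libraries allow. For the 48 lineage factor nuclei the difference was -0.0113 percentage points, and for nuclei with 3 or more Gpr17 UMIs it was -0.0111. The gate was also applied after thinning to 1000 UMIs, which left out shallower nuclei and kept 8329, 15304, 2191 and 6834 nuclei of DOCA-salt 1, DOCA-salt 2, Sham 1 and Sham 2. The shares of these were 0.156%, 0.0653%, 0.0456% and 0.132% (13, 10, 1 and 9 nuclei), and the difference was 0.0220 percentage points (exact permutation p = 0.667). After thinning to 2000 UMIs the difference was -0.0233 percentage points (exact permutation p = 0.667), so it did not turn there. The parts of thinning and of leaving out shallower nuclei in the turn at 1000 UMIs were not tested apart. With Sham 1 left out of the unthinned shares the difference was -0.127 percentage points. It was -0.165 without DOCA-salt 1 and -0.0321 without DOCA-salt 2. For nuclei with fewer than 5 neuron markers it was 0.0493.

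Relative to the oligodendrocyte lineage the order of the libraries was another. Precursor-gated nuclei (2 or more Pdgfra UMIs) numbered 219, 405, 60 and 180, and mature-gated nuclei (3 or more of the 7 mature genes) 347, 2044, 462 and 874. Committed-gate nuclei were 3.90%, 0.689%, 0.949% and 2.04% of the 3 gates together in DOCA-salt 1, DOCA-salt 2, Sham 1 and Sham 2. The 2 DOCA-salt libraries held the highest and the lowest share, and the Sham values lay between them. The difference of means was 0.8005 percentage points (exact permutation p = 1), and it was -0.807 without DOCA-salt 1. Without Sham 1 it was 0.253, for the lineage factor nuclei it was 0.979, and after thinning to 1000 and 2000 UMIs it was 3.36 and 3.08. With 2 against 2 libraries this exact permutation test cannot give a p below 0.333, so it could not pass a threshold of 0.05 for either denominator.

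**Figure D2:**
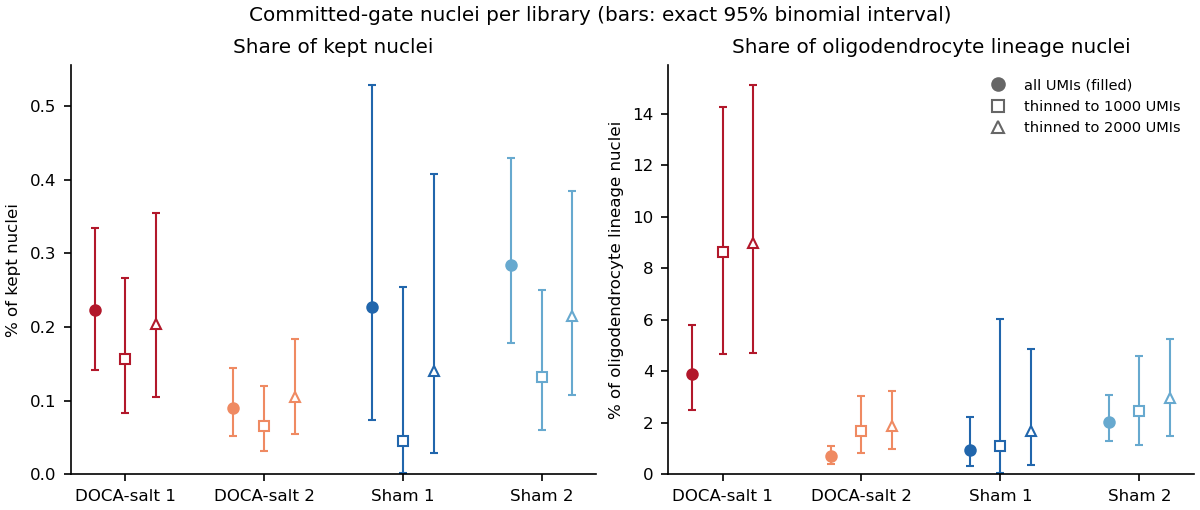
Share of committed-gate nuclei among kept nuclei (left) and among the nuclei of the precursor, committed and mature gates (right), in percent, for each library with all UMIs (filled) and after thinning to 1000 or 2000 UMIs per nucleus with shallower nuclei left out (open). Bars are exact 95% binomial intervals; the DOCA-salt libraries lie below both Sham libraries in the left panel only when all UMIs are used.

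To place the committed gate within the lineage, its summed counts were compared with those of the precursor gate and of the mature gate in the same libraries (edgeR quasi-likelihood test with library as a block, Benjamini-Hochberg false discovery rate, FDR, under 0.05). Genes that either gate uses were left out of the tests. The gates were made from genes of these stages, so other genes of a stage were bound to follow them in part, and the values below describe the gates rather than give independent evidence of the stage. Against precursors, 110 of 9212 genes tested were called, 1.19% (87 higher, 0.944%, and 23 lower, 0.25%, in the committed gate). Against mature nuclei, 244 of 11200 were called, 2.18% (125 higher, 1.12%, and 119 lower, 1.06%; with DESeq2 76 higher and 29 lower). The median log2 fold change over all genes tested was -0.04 and -0.08.

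Genes of the committed and newly formed oligodendrocyte state were higher in the committed gate than in both neighbours. Of 20 genes in this list, 18 passed the filter on low counts against precursors and 14 of them were higher, none lower, with a median log2 fold change of 2.09. Against mature nuclei 19 passed, 14 were higher and none lower, with a median of 2.23. Bcas1 stood at 386, 938, 25.9 and 379 CPM in the committed gate of DOCA-salt 1, DOCA-salt 2, Sham 1 and Sham 2, at 56.4, 67.8, 72.7 and 70.6 CPM in precursors and at 58.3, 70.3, 77.5 and 111 CPM in mature nuclei. Its log2 fold change was 2.71 (SE 0.233, edgeR FDR 8.85e-14) over precursors and 2.33 (SE 0.184, FDR 1.30e-33) over mature nuclei. The committed gate was the highest of the 3 in each library but Sham 1, where it held 1 UMI and its place was not resolved.

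9630013A20Rik (chromosome 14, 84458639 to 84476424, minus strand) showed the sharpest restriction of the genes in this list. It stood at 149, 253, 0 and 93.3 CPM in the committed gate, at no more than 2.89 CPM in precursors and at no more than 4.51 CPM in mature nuclei of any library. The annotation lists its gene type as antisense. Neu4 stood at 210, 268, 0 and 134 CPM, against 89.0, 67.4, 61.0 and 87.9 CPM in precursors and at most 3.72 CPM in mature nuclei, so its step lay mainly between the committed and mature gates (log2 fold change 1.05 and 5.61).

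Other members of the list differed in the same manner. Fyn, a kinase that relays axonal contact into local myelin synthesis, was higher by 2.17 and 2.42 on the log2 scale over precursors and mature nuclei. Nfasc, whose product anchors the paranode, was higher by 2.04 and 1.33, and the deacetylase Sirt2 by 2.31 and 1.86. Tcf7l2, a Wnt effector needed for differentiation, was higher by 2.05 over either neighbour, the focal adhesion gene Tns3 by 2.08 and 2.30, and the calcium channel gene Itpr2 by 1.48 and 2.69. Cnksr3, a scaffold protein gene, was higher by 4.91 over precursors, at 108, 104, 25.9 and 5.83 CPM, but 13 of its 16 UMIs in DOCA-salt 1 came from 1 nucleus. Elovl7, of fatty acid elongation, was higher than precursors (2.76) and not called against mature nuclei (0.20). Mycl was higher than in mature nuclei (2.23) and not called over precursors (1.47). Lims2 (2.09 and 3.59), Kif19a (3.97 and 3.91) and Chn2 (2.06 and 0.93) were called in both. Tmem163, Prom1 and Man1a were called in neither comparison, Rras2 passed the filter against mature nuclei alone and was not called, and Casr passed in neither.

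Of the calls higher in the committed gate, 59 were shared by both comparisons, which is 67.8% of the 87 and 47.2% of the 125. The comparisons share the committed-gate counts, so these are not 2 independent results. Beyond the list, the shared genes included Epb41l2, which links the membrane to the cytoskeleton, at 318, 521, 51.8 and 274 CPM against at most 58.8 CPM in precursors, and Plxnb3, a semaphorin receptor gene (2.55 and 2.08). Frmd4a, Cd9, Gp1bb and Rassf10 were also shared and are named after their values were seen. Mpzl1, a cell surface protein related to myelin protein zero, stood at 305, 566, 0 and 122 CPM against at most 36.9 CPM in precursors. S100a6, a calcium-binding protein, was higher than both (2.62 and 2.40), at 264, 89.3, 77.7 and 52.5 CPM.

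As an example of regulatory sequence at genes that set the committed gate apart, the promoters of 3 list genes called higher in both comparisons are shown, those of lowest p over precursors with a single promoter in the table. The sequences are from RefSeq on GRCm38.p6 and run 5′ to 3′ on the strand of the gene. Each spans 250 bases before to 50 bases after a start listed for the gene there. For Fyn the annotated gene begins at 39368855, so its window lies inside the gene. Capitals mark the E-box CANNTG, the motif read by basic helix-loop-helix factors such as Olig1 and Olig2, searched on both strands, which read the same.
9630013A20Rik (chr14:84476375-84476674, minus strand): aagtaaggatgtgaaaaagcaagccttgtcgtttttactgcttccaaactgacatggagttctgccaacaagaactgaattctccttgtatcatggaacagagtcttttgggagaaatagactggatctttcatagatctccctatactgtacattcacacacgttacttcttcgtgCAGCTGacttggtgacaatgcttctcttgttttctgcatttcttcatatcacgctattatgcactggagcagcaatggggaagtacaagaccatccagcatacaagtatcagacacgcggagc
Sirt2 (chr7:28766502-28766801, plus strand): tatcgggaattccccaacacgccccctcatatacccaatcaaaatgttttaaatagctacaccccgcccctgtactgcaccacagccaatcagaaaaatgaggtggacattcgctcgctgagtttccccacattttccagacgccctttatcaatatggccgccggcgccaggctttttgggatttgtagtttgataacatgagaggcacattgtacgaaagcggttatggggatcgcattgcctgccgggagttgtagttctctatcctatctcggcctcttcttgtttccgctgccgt
Fyn (chr10:39369549-39369848, plus strand): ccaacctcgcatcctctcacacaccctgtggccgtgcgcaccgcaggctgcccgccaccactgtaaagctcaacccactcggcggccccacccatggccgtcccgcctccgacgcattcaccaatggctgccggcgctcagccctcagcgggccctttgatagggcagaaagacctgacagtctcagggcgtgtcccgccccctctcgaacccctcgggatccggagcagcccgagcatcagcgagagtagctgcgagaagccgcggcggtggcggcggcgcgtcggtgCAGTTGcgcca
The window of 9630013A20Rik and that of Fyn hold 1 E-box each and that of Sirt2 holds 0. Of all 32851 promoters of this length, 72.3% hold at least 1, so a match is frequent in any gene. The SOX-like motif ACAAT, or ATTGT on the other strand, has 1, 1 and 0 matches in the windows of 9630013A20Rik, Sirt2 and Fyn and is held by 31.0% of all promoters.

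Precursor genes were partly lost in the committed gate. Of 18 genes in the precursor list, 17 were tested against precursors, of which 6 were lower and 1 higher (median log2 fold change -0.89). Against mature nuclei 9 of 17 were higher and none lower (median 0.81). Cspg4, the NG2 proteoglycan of precursors, stood at 27.1, 74.4, 25.9 and 46.7 CPM in the committed gate, against 209, 125, 185 and 216 CPM in precursors and 6.07, 6.89, 7.07 and 9.79 CPM in mature nuclei. It was intermediate in each library, though the value of Sham 1 is 1 UMI and its place there is not resolved (log2 fold change -2.19 with SE 0.307 and FDR 5.44e-07, and 2.38 with SE 0.561 and FDR 0.00170, edgeR). Matn4 (-0.93 and 2.48) and Ptprz1 (-0.97 and 0.59) were placed in the same way, and Xylt1, Ccnd1 and Kcnip3 were lower than in precursors (-1.46, -1.51 and -1.31).

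Other precursor genes were kept. Vcan, a matrix proteoglycan, stood at 359, 193, 51.8 and 245 CPM in the committed gate and at 273, 176, 169 and 235 CPM in precursors (log2 fold change 0.09, not called), but at no more than 26.1 CPM in mature nuclei (3.66). Sox6, a factor that holds back myelin gene expression, was likewise not called against precursors (0.63) and was higher than in mature nuclei (2.66). Tnr, the matrix glycoprotein tenascin-R, was the precursor list gene that was higher than in both (1.13 and 2.80). Outside the list, Cspg5, a neuron-glial proteoglycan, stood at 203, 357, 207 and 303 CPM against 645, 520, 594 and 641 CPM in precursors (-1.20), and Itgav, an integrin subunit (-1.85), and Nxph1 (-1.30) were lower as well. C1ql1 (2.81), Col11a2 (2.83) and Snx22 (2.73) were higher than in mature nuclei.

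Myelin genes did not all differ in the same way. Over precursors, 4 of the 15 tested genes of the 19 in the myelin list were higher and none lower (median log2 fold change 1.13): Cnp (2.91), Mbp (1.21), Ugt8a (1.64) and Enpp2 (1.13). Against mature nuclei, 11 of 19 were lower and none higher (median -1.22). Cnp, the phosphodiesterase of non-compact myelin, stood at 453, 521, 77.7 and 327 CPM in the committed gate, against 39.1, 52.9, 55.2 and 50.8 CPM in precursors and 375, 333, 231 and 365 CPM in mature nuclei and was not called there (log2 fold change -0.01), nor were Mbp (-0.44) and Ugt8a (-0.40).

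The other called genes of the list were lower than in the mature gate to differing degrees. Trf, the iron carrier transferrin, stood at 54.1, 44.6, 51.8 and 29.2 CPM in the committed gate and at 468, 402, 230 and 465 CPM in mature nuclei (log2 fold change -3.43, SE 0.267, edgeR FDR 1.60e-34). Car2 (carbonic anhydrase, -3.48), Apod (a lipid carrier, -3.19) and Mobp (a protein of compact myelin, -2.04) were lower as well. So were Tmem88b (-2.16), Tspan2 (a tetraspanin, -1.22) and Qdpr (dihydropteridine reductase, -1.10). Aspa, Ppp1r14a and Gjb1 were called lower with 1 UMI each in the whole committed gate, so their fitted fold changes are uncertain. Anln was listed with 0 UMIs in the committed gate of all 4 libraries, against 22.9 to 65.3 CPM in mature nuclei. Outside the list, Ptgds, the prostaglandin D synthase of mature oligodendrocytes, stood at 305, 134, 259 and 58.3 CPM against 2086, 1902, 1018 and 763 CPM (-3.17), the nuclear RNA Neat1 stood at -3.35, and the receptor gene Gpr37, a brake on differentiation, at -3.59, all lower than in mature nuclei. The plot of levels by gate shows these orders for 12 genes.

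**Figure D3:**
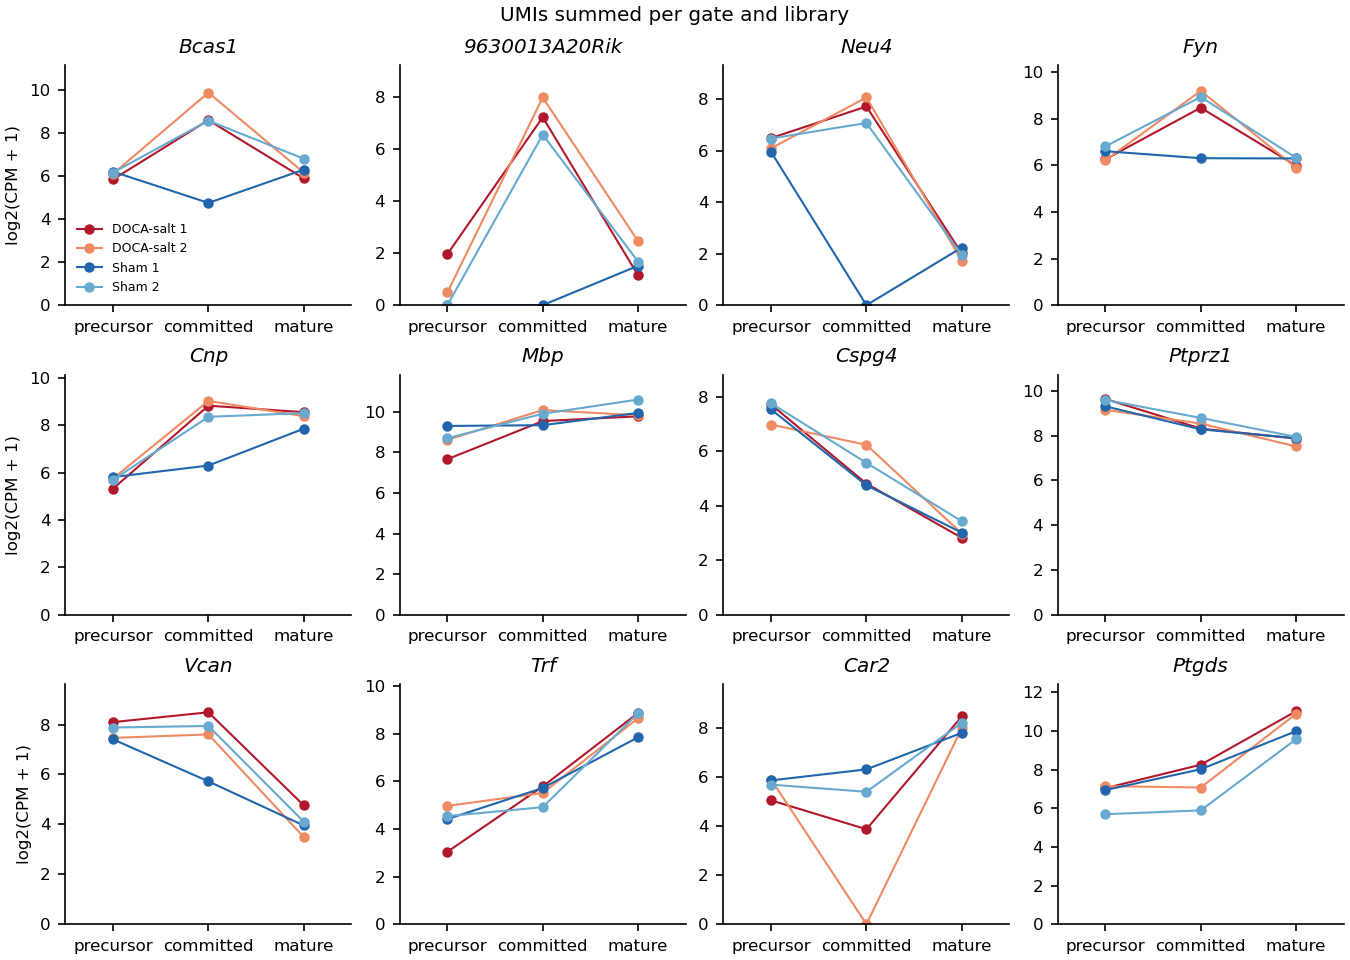
Levels of 12 genes as log2(CPM + 1) of UMIs summed over precursor-gated, committed-gate and mature-gated nuclei, with 1 line per library. Bcas1, 9630013A20Rik and Fyn peak in the committed gate in each library but Sham 1, Cspg4 falls from gate to gate, and Trf, Car2 and Ptgds are highest in the mature gate.

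Some transcription factors of the lineage were called in each comparison. Against precursors, 18 of 19 were tested, of which Myrf (2.67), Sox4 (1.07) and Zeb2 (1.59) were higher and Hes5 was lower. Myrf, the master activator of myelin genes, stood at 60.9, 89.3, 0 and 40.8 CPM in the committed gate, at no more than 9.29 CPM in precursors and at 55.3, 33.8, 29.0 and 41.4 CPM in mature nuclei, where it was not called (0.16). Hes5, a Notch target that holds precursors undifferentiated, stood at 27.1, 29.8, 0 and 23.3 CPM against 141, 122, 112 and 77.4 CPM in precursors (-2.22, SE 0.386, edgeR FDR 6.67e-05). Against mature nuclei, Sox10 (1.10), Olig2 (1.73) and Sox4 (1.82) were higher, and none of the 19 tested was lower. For the lineage factor nuclei 7 of 19 were higher, though Sox10, Olig1 and Olig2 chose those nuclei, and 6 were higher without the 4 tanycyte marker nuclei. Among the factors of this list, Sox4, which keeps cells immature, was thus the only member called higher than in both gates.

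BMP signalling genes other than Bmp4 did not pass the test in either comparison: 0 of 11 tested genes against precursors (median log2 fold change 0.12) and 0 of 17 against mature nuclei (median -0.01), from a list of 24. With the lineage factor nuclei alone, edgeR called 1 gene of the list in each comparison. The receptor gene Bmpr1a stood at 81.2, 59.5, 25.9 and 64.2 CPM and the target Id4 at 271, 164, 285 and 99.2 CPM in the committed gate. Of 20 further regulators of differentiation, 12 and 15 were tested and only Gpr37 was called. Among 20 cell cycle genes, 1 passed the low-count filter against precursors, Cdkn1b, an inhibitor of cyclin-dependent kinases (0.46, not called). Against mature nuclei 4 passed and none was called (median -0.11). With so few tested, the level of proliferation genes could not be resolved at this depth. None of 18 cholesterol synthesis genes was called in either comparison, with medians of 0.07 and -0.10.

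Genes of corticosteroid reception and response were of interest because DOCA acts on the mineralocorticoid receptor. Nr3c2, which encodes it, stood at 6.77, 14.9, 0 and 11.7 CPM in the committed gate, which is 1, 1, 0 and 2 UMIs, and its level could not be resolved at this depth. Nr3c1, the glucocorticoid receptor gene, stood at 122, 149, 130 and 75.8 CPM, with log2 fold changes of -0.07 and -0.12 that were not called. Sgk1, a kinase gene induced by both receptors, stood at 88.0, 179, 0 and 81.7 CPM and was higher than in precursors (1.83, edgeR FDR 6.08e-04), and it was the only gene called of 11 in this list tested there. Of 14 tested against mature nuclei none was called by edgeR, with Sgk1 at -0.41.

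Some calls in these comparisons were of genes known from other cells. Pmch, a neuropeptide gene of melanin-concentrating hormone neurons, was lower than in precursors (-3.44) with 6.77, 223, 25.9 and 0 CPM in the committed gate and 26.1, 2396, 295 and 4.33 CPM in precursors, so the gap was widest in DOCA-salt 2 and Sham 1. Oxt, the oxytocin gene, was lower than in both gates (-2.97 and -3.14). Against mature nuclei, 1 of 10 neuron markers, Snap25 (-0.47, edgeR FDR 0.0383), and 1 of 8 astrocyte markers, Agt (-0.97, FDR 1.84e-04), were lower, with list medians of -0.27 and -0.66, and none of either list was called against precursors. The tanycyte markers Col23a1 (2.05 and 1.96) and Scn7a (1.82 over mature nuclei) were called higher, and without the 4 tanycyte marker nuclei of DOCA-salt 1 the values were -1.64 and -1.52 for Col23a1 and -0.70 for Scn7a, and none was called. Of the committed-state list, 14 genes were called higher in each of the comparisons, taken separately, without these 4 nuclei, without Sham 1 and for the 48 lineage factor nuclei. Over all genes, 0.916% were higher than in precursors and 1.17% higher than in mature nuclei without Sham 1, 1.3% and 1.24% for the lineage factor nuclei, and 1.08% and 1.14% without the 4 nuclei.

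**Figure D4:**
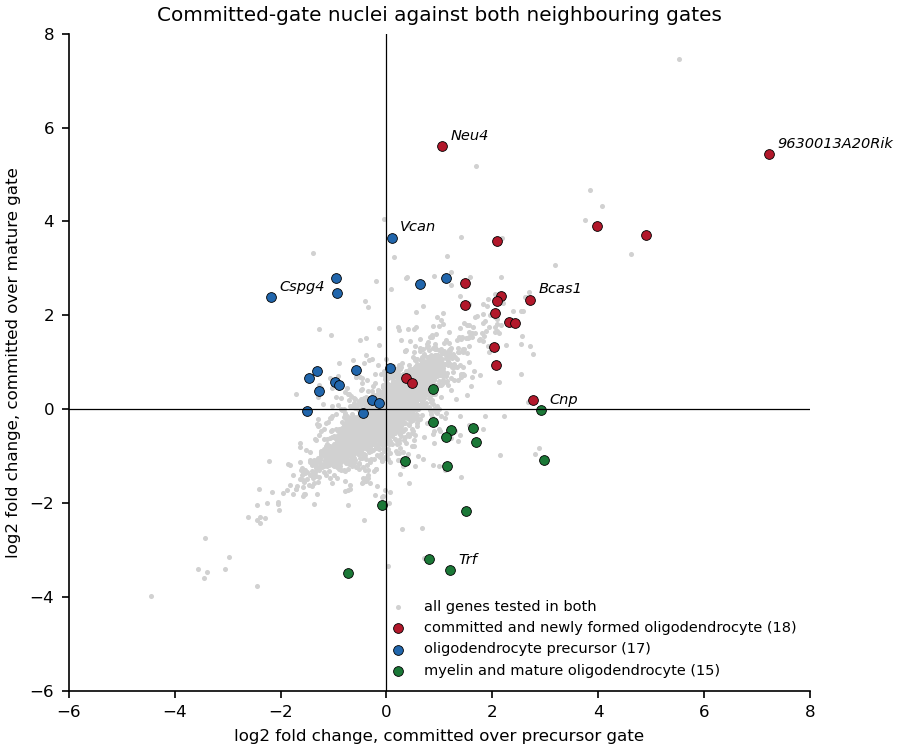
Log2 fold change of the committed gate over the precursor gate (horizontal) and over the mature gate (vertical) for genes tested in both, with 3 gene lists in color and the number of their genes shown in brackets. Committed-state genes lie to the upper right, precursor genes above and mostly to the left of 0, and myelin genes below and mostly to the right; 1 gene lies beyond the axes.

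Between DOCA-salt and Sham, few genes differed within the committed gate. Of 2776 genes tested, edgeR called 4, 0.144%, of which 1 was higher (0.036%) and 3 were lower (0.108%) with DOCA-salt, and 180 had an unadjusted p under 0.05. No gene of the committed, precursor, myelin, lineage factor, BMP, regulator, cholesterol or corticosteroid lists was called. The medians over the tested genes were 0.92 for 12 committed-state genes, -0.01 for 9 precursor genes and 0.20 for 6 myelin genes, beside 0.03 for all genes tested. Without Sham 1 the 3 medians were 0.50, -0.16 and -0.09, and for the lineage factor nuclei they were 0.57, -0.03 and 0.02. Without Sham 1, 8 of 4948 genes were called, 0.162%. For the 48 nuclei with a lineage factor, 1 of 2106 was called, 0.0475%. Without the 4 tanycyte marker nuclei 8 of 1890 were called, 0.423%, and these include Mag, which the gate uses. Gate genes were kept in these tests between treatments.

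Bc1 was called in each of these fits. It is a small non-coding RNA of neurons that RNA polymerase III transcribes (chromosome 7, 144914470 to 144914637, plus strand). It stood at 196 and 238 CPM in DOCA-salt 1 and 2 and at 2875 and 2806 CPM in Sham 1 and 2, so the groups were far apart. The log2 fold change was -3.67 (SE 0.383, edgeR FDR 4.16e-06), -3.71 without Sham 1 and -3.58 for the lineage factor nuclei. Without Sham 2 it was -3.64 and the FDR was 0.449. All other kept nuclei had 208, 313, 2219 and 3137 CPM, and the test of the difference between the committed gate and all other nuclei did not call Bc1. Gm42418, a locus on chromosome 17 (39846958 to 39848788, plus strand) annotated as a long non-coding RNA, behaved alike, with 3039, 1146, 13857 and 6183 CPM in the committed gate and 3584, 898, 10600 and 9225 CPM in all other nuclei. Its log2 fold change was -2.16 (FDR 0.0449), and it was not called without Sham 1 (-1.54, FDR 0.207) or Sham 2 (-2.58, FDR 0.732), for the lineage factor nuclei (-1.53, FDR 0.874) or with DESeq2 (-2.17). It overlaps ribosomal RNA sequence, so its counts are uncertain. The mitochondrial gene mt-Atp8 just missed the threshold (-2.16, edgeR FDR 0.0535) at 115, 44.6, 492 and 385 CPM, again beside 129, 73.6, 327 and 466 CPM in all other nuclei. It was called without the 4 tanycyte marker nuclei (-2.53, FDR 0.00514), and not without Sham 1 (-2.10, FDR 0.0643).

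The other calls each leaned on a single nucleus. Sst, the somatostatin gene, stood at 305, 1354, 77.7 and 87.5 CPM (log2 fold change 3.22, SE 0.577, edgeR FDR 0.00999), and 87 of its 91 UMIs in DOCA-salt 2 came from 1 nucleus. In DOCA-salt 1 its 45 UMIs were spread over 9 of 23 nuclei. Sst was not called for the lineage factor nuclei (FDR 0.513), without DOCA-salt 2 (1.86, FDR 0.0872) or without Sham 2 (FDR 0.732). Hbb-bs, a beta-globin gene of red blood cells, stood at 20.3, 44.6, 104 and 904 CPM (-4.28, SE 0.704, edgeR FDR 0.00443), and 141 of its 155 UMIs in Sham 2 came from 1 nucleus. It did not pass the low-count filter for the lineage factor nuclei and was not called with DESeq2. It is close in sequence to Hbb-bt, so its counts are uncertain. Below the threshold were Mpzl1 (2.21, FDR 0.139), Gm47283 (1.72, FDR 0.139), Zfhx4 (-2.72, FDR 0.146), Zfhx3 (-1.66, FDR 0.167) and Cadps2 (-3.18, FDR 0.170). With the replicate number as a block, edgeR called Mpzl1 (2.64), Gm47283 (1.95) and Zfhx4 (-2.69), and also mt-Atp8 (-2.38). Mpzl1 stood at 305 and 566 CPM with DOCA-salt and at 0 and 122 CPM with Sham, and its FDR was 0.00514 without the 4 tanycyte marker nuclei and 0.338 without Sham 1. Gm47283 was called without the 4 nuclei (1.78, FDR 0.0117) and not without Sham 1 (1.22, FDR 0.998). As a check of the scripts, counts were simulated with the same depths and a common spread (dispersion) for all genes. It was 0.0492 for this comparison and 0.0146 for the test of the difference described next. Of the genes given a log2 fold change of 2 that passed the low-count filter, 81.9% (140 of 171) and 18.9% (37 of 196) were recovered. Counts that lean on single nuclei, as for Sst and Hbb-bs, were not simulated. These shares therefore do not tell how many such changes would be found in the real counts.

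The test of whether the DOCA-salt effect differed between the committed gate and all other kept nuclei called 16 of 14794 genes, 0.108% (12 higher, 0.0811%, and 4 lower, 0.027%). The counts include the gate genes Mag and Enpp6, on which the nuclei were chosen, and nothing is read from these. Without Sham 1 it called 10 of 16051, 0.0623%, and for the lineage factor nuclei 6 of 14761, 0.0406%. Bcas1 stood at 386, 938, 25.9 and 379 CPM in the committed gate and at 19.1, 45.3, 59.4 and 61.2 CPM in all other nuclei. The difference of the 2 effects was 2.15 on the log2 scale (SE 0.353, edgeR FDR 3.98e-06), with 1.68 (FDR 0.00170) without Sham 1 and 1.88 (FDR 0.00506) for the lineage factor nuclei, but DESeq2 did not call it (2.83, SE 0.814, adjusted p 0.9999). In the fit to the lineage factor nuclei, Sham 1 was represented by 2 nuclei with no Bcas1 UMI. Both DOCA-salt values of Bcas1 lay above both Sham values in the committed gate, by a narrow margin over Sham 2, and below both in all other nuclei. Cnp stood at 46.5, 107, 114 and 110 CPM in all other nuclei, and its difference was 1.61 (FDR 0.00489). When each library was left out, it ranged from 1.09 (without DOCA-salt 1) to 3.64 (without Sham 2). That of Bcas1 ranged from 1.68 (without Sham 1) to 5.79 (without Sham 2). Of all kept nuclei, mature-gated nuclei were 347 of 10307, 2044 of 18907, 462 of 2203 and 874 of 7759. The part of this makeup in the difference was not tested. With 3 or more Gpr17 UMIs, neither Bcas1 (1.82) nor Cnp (1.16) was called. Gjc3, Cnp, Mbp and Mpzl1 were called with all 4 libraries (1.77, 1.61, 1.27 and 1.89) and neither without Sham 1 nor for the lineage factor nuclei. Their differences were then 1.18, 1.24, 1.09 and 1.55 without Sham 1, and 1.38, 1.37, 1.44 and 1.29 for the lineage factor nuclei. Sirt2 of the committed list was likewise called only with all 4 libraries among these 3 fits (1.36, FDR 0.0259).

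**Figure D5:**
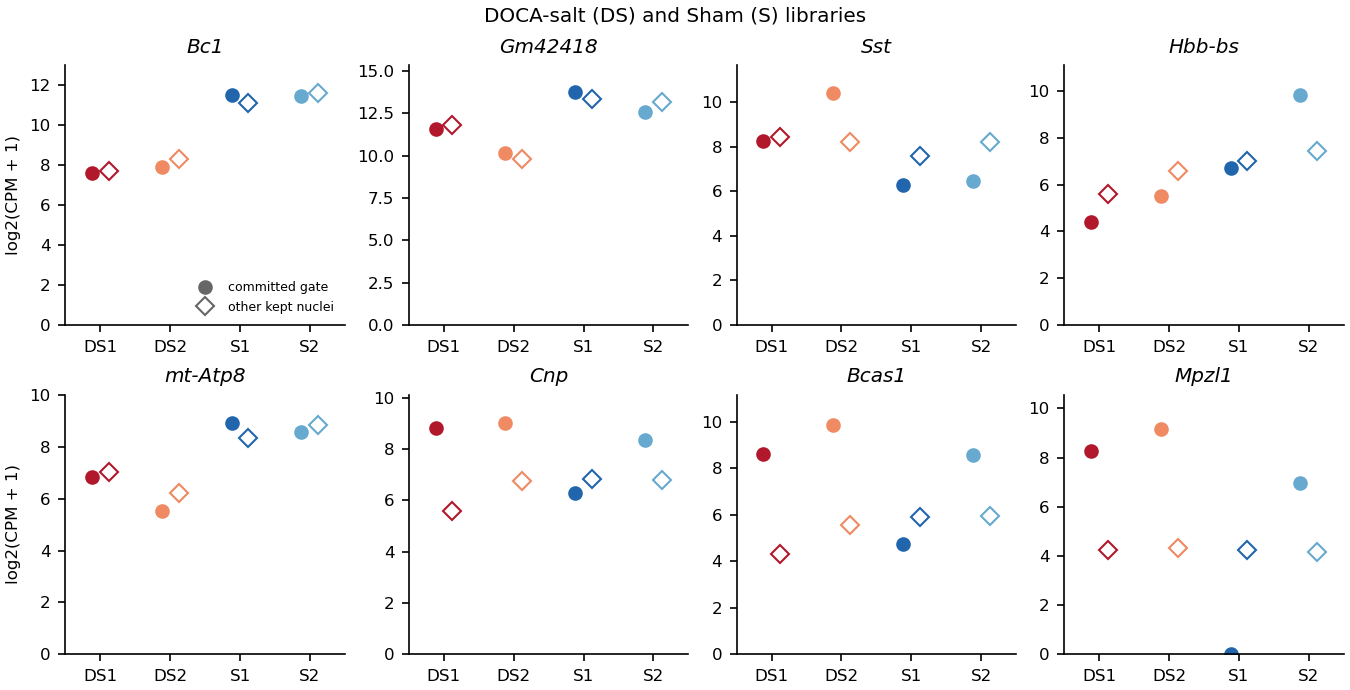
Levels of 8 genes in each library as log2(CPM + 1), in committed-gate nuclei (filled circles) and in all other kept nuclei (open diamonds), for DOCA-salt 1 and 2 (DS1, DS2) and Sham 1 and 2 (S1, S2). Bc1, Gm42418 and mt-Atp8 follow the library in both classes, Sst in DS2 and Hbb-bs in S2 stand out in the committed gate, and Cnp and Bcas1 are above the other nuclei in each library but S1.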

How the data were processed

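Nuclei were isolated from ARC punches and sequenced with 10x Genomics 3′ chemistry. The authors used Cell Ranger 3.0.1 and the GRCm38 (mm10) genome to make the deposited count matrices, which hold raw UMIs without normalization. Everything else was computed here. Barcodes were kept if over 200 but under 7000 genes were detected, the total was below 25000 UMIs and mitochondrial transcripts were below 15%. Counts were summed per gate and library and tested with edgeR 4.0.16 (TMM, filterByExpr, quasi-likelihood, FDR under 0.05) in R 4.3.3. The study tested nuclei with MAST, which was not run. DESeq2 1.42.0 was an alternative. Shares were tested with exact permutation tests (scipy 1.17.1). Doublets were scored with Scrublet (scanpy 1.11.5) and removed only in an alternative. The precursor gate also had fewer than 3 mature genes and fewer than 2 of Col1a1, Col1a2, Dcn and Lum, and the mature gate had no Pdgfra UMI and did not meet the marker part. Positions are from GENCODE M21. The committed-gate nuclei and all gene lists were chosen with earlier results of these data known. Named genes were the gate genes, list genes, the treatment calls whose groups did not overlap and the 10 of lowest p, up to 12 called genes per direction of largest fold change against each gate, at 50 CPM or more and moving the same way in each library, and the 10 interaction calls of lowest p. Genes that are not reported here were dropped from the lists and from the named genes, but stayed in all fits and in counts over all genes. Scripts were tested on simulated data. In the committed gate 3 UMIs equal 20.3, 44.6, 77.7 and 17.5 CPM in DOCA-salt 1, DOCA-salt 2, Sham 1 and Sham 2. Such small sums limit the precision of low genes.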

Additional observations from a re-analysis of the deposited data

Results flagged for a closer look

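Of the 16 of 14794 genes (0.108%) called by the interaction term, 9 of those outside the gate genes, chosen by lowest p, are given here. In these, the effect of DOCA-salt in committed-gate nuclei differed from that in all other kept nuclei (edgeR quasi-likelihood test, FDR under 0.05, 4 libraries). Differences are log2 fold changes, committed gate minus all other nuclei. They were 2.15 for Bcas1, 1.77 for Gjc3, 1.61 for Cnp, 1.27 for Mbp and 1.89 for Mpzl1. Sst differed by 2.68, with 87 of 91 UMIs of DOCA-salt 2 in 1 nucleus, and by 1.49 without DOCA-salt 2. Without Sham 2 the difference of Hbb-bs was -0.59. With all 4 libraries Hbb-bs differed by -3.08, with 141 of 155 UMIs of Sham 2 in 1 nucleus. Hba-a2 differed by a fitted -13.5, with 56 of 63 UMIs in 1 nucleus of Sham 2 and 0 UMIs in the committed gate of the other 3 libraries. Col23a1 differed by a fitted 15.2, with 60 UMIs in DOCA-salt 1 and 0 in the committed gate of the other 3 libraries; fitted values against libraries at 0 are not bounds. Without the 4 tanycyte marker nuclei Col23a1 was not called. With DESeq2 none of the 9 was called (adjusted p 0.9999 each). For the lineage factor nuclei Gjc3 (1.38, FDR 0.681), Cnp (1.37, FDR 0.453), Mbp (1.44, FDR 0.0856), Mpzl1 (1.29), Hbb-bs (-0.25) and Hba-a2 (a fitted -10.2) were not called.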

How the results depend on the processing

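With 67 nuclei in 4 libraries, single nuclei and libraries decided several values. The share of kept nuclei turned from -0.0987 to 0.0220 percentage points after thinning to 1000 UMIs (32658 nuclei, shallower ones left out). It was -0.0233 after thinning to 2000 UMIs and did not turn there. For nuclei with fewer than 5 neuron markers it was 0.0493, and it ranged from -0.165 to -0.0321 when each library was left out. The share of the lineage ranged from -0.807 (without DOCA-salt 1) to 2.41 (without DOCA-salt 2) and was 3.36 and 3.08 after thinning to 1000 and 2000 UMIs. Between treatments, 4 genes were called, against 2 with DESeq2 or without doublets, 16 without the count filter, 1 with 3 or more Gpr17 UMIs, 1 with a lineage factor, 1 with fewer than 5 neuron markers, 7 after thinning and 8 without tanycyte marker nuclei, an alternative chosen after seeing the data. Leaving out DOCA-salt 1, DOCA-salt 2, Sham 1 or Sham 2 gave 25, 22, 8 and 0 calls, the last with edgeR and 133 genes at an unadjusted p under 0.05. These fits leave 1 library in a group, assumed to vary like the other group. The replicate block gave 8 calls, mt-Atp8 (-2.38), Gm47283 (1.95) and Mpzl1 (2.64) among them. Deviations of DOCA-salt 1 and Sham 1 correlated at -0.0206. The paper calls the Sham mice littermates, and whether pools of the same number shared litters was not tested. The interaction gave 2 (both higher) with DESeq2, 2 with 3 or more Gpr17 UMIs, 6 with a lineage factor, 0 with fewer than 5 neuron markers (42 at an unadjusted p under 0.05) and 5, 18, 10 and 24 without each library in the same order. The precursor comparison gave 52 with DESeq2, 68 after thinning, 42 without the library block and 58, 89, 115 and 54 without each library. The mature comparison gave 105 with DESeq2, after thinning or without the block, 70 with fewer than 5 neuron markers and 140, 184, 234 and 167 without each library. Sums with fewer than 5 neuron markers left out Sham 1, which has no such nucleus. With them, log2 values reversed for Mpzl1 between treatments (-0.26) and for Sst in the interaction (-0.98, SE 2.32). They also reversed for Col23a1 over precursors (-7.51) and mature nuclei (-9.06), and for Scn7a (-8.33) over mature nuclei. In the interaction Hbb-bs (fitted 1.36, SE 4746) and Hba-a2 (fitted 1.89, SE 1.89e+06) could not be estimated, so no direction is read from them. Hbb-bs reversed in the interaction with 3 or more Gpr17 UMIs (1.58, SE 1.11), and Col23a1 with DESeq2 (-1.31 over precursors and -1.001 over mature nuclei). Without Sham 2 the committed gate held 0 Hba-a2 UMIs, so its fitted interaction of 1.33 is no estimate. Without DOCA-salt 1, Col23a1 (-9.06) and Scn7a (-0.83) reversed over mature nuclei. Over the 4 fits without 1 library, these ranged from -9.06 to 2.78 for Col23a1 and from -0.83 to 2.21 for Scn7a. For Hba-a2 the fits that kept Sham 2 gave fitted interactions from -14.1 to -12.9. Without tanycyte marker nuclei Col23a1 (-1.64 and -1.52) and Scn7a (-0.70) reversed. The cause was not tested. The comparison of nuclei with Enpp6 and without Bmp4 and the opposite kind was not run, since no library held 5 of each.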
